A study of Mus musculus with 38 samples.

Results

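CTCF peaks were called in mouse skin at 14439 sites that had no CTCF peak in thymocytes, out of 31203 skin CTCF peaks on chromosomes 1 to 19 and X (46.3%). These skin-only sites were chosen by the peak lists themselves, as every peak of the skin CTCF list that shared no bp with a peak of the thymocyte CTCF list. The count is therefore a description, and so are the fold enrichment values of the members. The other 16764 skin peaks overlapped a thymocyte peak and are called shared, and 3332 of the 20219 thymocyte CTCF peaks overlapped no skin peak and are called thymocyte-only. Some skin-only sites lay close to the limit of the rule. The 3 nearest were 3, 10 and 17 bp from a thymocyte peak, with a fold enrichment over background of 2.95, 2.38 and 5.09. The 3 shared peaks with the least overlap shared 6, 7 and 20 bp, with a fold of 3.06, 4.02 and 4.55. In all, 466 skin-only sites (3.23%) lay within 1 kb of a thymocyte CTCF peak, and the median distance was 38.9 kb.

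The study mapped SATB1, a chromatin organizer, and CTCF after purifying crosslinked chromatin through urea (urea ChIP-seq), and SATB1 also by standard ChIP-seq. All lists used here came from C57BL/6 mice with wild-type Satb1, and 1 Active MOTIF CTCF antibody, of a single lot, was used in both tissues. The skin chromatin came from primary epidermal keratinocytes, with ages of P13 in the sample field and P5 in the protocol, and another in the study's methods. The thymocyte chromatin was labelled P13, with 6 weeks in the title of the CTCF sample, so age and tissue cannot be told apart. A single CTCF list per tissue was analysed here, and a second wild-type thymocyte CTCF sample, labelled P13 in its title, was not. SATB1 had 2 urea lists each in skin, thymocytes and brain (5 and 6 weeks in the age fields, P13 in the protocol and another range in the study's methods), all with the home-made antibody 1583D. It also had 2 standard lists in thymocytes, the first with ab109122 (6 weeks in its title, P13 in its age field) and the second with 1583D. Within the urea pairs the titles differed in sonication (55 and 60 s, skin), antibody volume (4 and 2 ul, thymocytes) or PCR cycles (10 and 12, brain). A further list held base unpairing regions (BURs), the genomic fragments of thymus DNA that bound SATB1 protein in vitro. Depth could not be read from any list. The median fold enrichment of skin-only sites was 4.69 (quartiles 3.88 and 5.89), against 6.96 (5.33 and 8.83) for shared peaks, and their median length was 304 bp against 449 bp.

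CTCF is a zinc finger protein that binds a long GC-rich motif and holds the bases of many chromatin loops. Most of its sites are used in many cell types. SATB1 is a nuclear protein of T cells, keratinocytes and neurons that binds AT-rich DNA prone to unpairing in vitro. The epidermis is renewed from basal keratinocytes, which are anchored to the basement membrane, move upwards and build the cornified barrier. Many genes of that barrier lie together in the epidermal differentiation complex, and keratin genes lie in 2 clusters.

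The sequences that carry the results were read from NCBIM37 around the peak summits. Capitals mark the CTCF core motif (CCA, any 2 bases, AG, any 2 bases and GGC, on either strand), or, where the window held no exact match, the match with 1 of the 8 fixed letters changed that was nearest to the summit. The first 3 are the strongest skin-only sites of the epidermal differentiation complex, at chr3:93211042-93211192, chr3:91957360-91957510 and chr3:92835518-92835668. The next 3 are the sites nearest to the starts of the keratin genes Krt10 (chr11:99252344-99252494), Krt14 (chr11:100061521-100061671) and Krt5 (chr15:101544077-101544227). All are written 5′ to 3′ on the plus strand.

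Complex site 1: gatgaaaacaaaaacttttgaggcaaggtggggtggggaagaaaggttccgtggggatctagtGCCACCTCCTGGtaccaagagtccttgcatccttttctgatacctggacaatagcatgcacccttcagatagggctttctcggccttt
Complex site 2: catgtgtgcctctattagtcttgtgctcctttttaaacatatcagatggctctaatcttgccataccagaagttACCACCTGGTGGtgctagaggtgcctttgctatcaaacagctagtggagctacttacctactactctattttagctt
Complex site 3: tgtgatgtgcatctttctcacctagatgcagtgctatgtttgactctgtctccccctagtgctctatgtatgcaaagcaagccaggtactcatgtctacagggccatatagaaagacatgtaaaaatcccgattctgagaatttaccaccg
Krt10 site: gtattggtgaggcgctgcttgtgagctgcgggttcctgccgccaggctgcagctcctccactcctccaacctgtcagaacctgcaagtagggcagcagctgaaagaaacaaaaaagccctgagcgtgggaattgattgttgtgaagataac
Krt14 site: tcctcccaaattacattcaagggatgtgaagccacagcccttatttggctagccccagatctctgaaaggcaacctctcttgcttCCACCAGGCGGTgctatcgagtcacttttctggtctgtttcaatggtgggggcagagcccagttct
Krt5 site: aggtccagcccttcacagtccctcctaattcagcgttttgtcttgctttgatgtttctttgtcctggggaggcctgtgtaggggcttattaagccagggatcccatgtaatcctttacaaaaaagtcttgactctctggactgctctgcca

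Site 1 of the complex held an exact core motif, and site 2 and the Krt14 site held a match with 1 letter changed. No such match was in the windows of site 3, Krt10 and Krt5. The windows ranged from 45.7% AT at the Krt10 site to 57.6% AT at site 2.

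The next windows stand for the sites described below that also had SATB1 peaks or lay on coding sequence. The strongest skin-only site of all, in an intron of Cdrt4, had a fold of 45.0 and is shown over chr11:62768183-62768281, where no core motif was found. The second, in an intron of Hhat (chr1:194484181-194484317, fold 40.3), had a core motif. The last window is a coding exon of Satb1 in capitals with its intron edges in lower case, at chr17:51907197-51907392 on the plus strand, whereas the gene lies on the minus strand.

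Cdrt4 intron site: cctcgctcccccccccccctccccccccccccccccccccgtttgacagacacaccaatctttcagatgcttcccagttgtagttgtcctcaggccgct
Hhat intron site: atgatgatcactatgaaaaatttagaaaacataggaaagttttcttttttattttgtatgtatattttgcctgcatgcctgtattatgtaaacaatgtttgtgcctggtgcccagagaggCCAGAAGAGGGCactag
Satb1 exon: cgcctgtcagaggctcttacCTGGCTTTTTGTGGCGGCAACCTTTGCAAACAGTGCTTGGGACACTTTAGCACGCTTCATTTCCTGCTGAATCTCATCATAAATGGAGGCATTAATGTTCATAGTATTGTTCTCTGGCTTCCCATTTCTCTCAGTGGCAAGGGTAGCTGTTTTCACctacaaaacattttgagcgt

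The skin-only sites lay farther from gene starts than the shared peaks did in the median. Of the 14439, 7062 (48.9%) were intergenic, 4701 (32.6%) were in introns, 1093 (7.57%) touched an exon and 1583 (11.0%, 95% Wilson interval 10.5 to 11.5) were at a promoter, within 1 kb of a gene start. Gene starts here are the starts of all annotated transcripts of protein-coding genes, so some lie inside a gene. Among all skin CTCF peaks 13.0% were at a promoter, with 14.7% of shared and 24.3% of thymocyte-only peaks. The median distance to the nearest gene start was 21.3 kb (quartiles 5.28 and 76.4 kb) for skin-only sites, 11.3 kb for shared and 9.26 kb for thymocyte-only peaks. Skin-only sites made up 38.3% of skin CTCF peaks on chromosome 19 and 61% on chromosome X, the extremes of the 20 chromosomes. Chromosome 14 had the second highest share, 52.9%.

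The skin-only sites were slightly richer in AT than shared peaks but poorer than the genome. Their median AT content was 53.0% (quartiles 47.8 and 58.1), against 51.7% for shared peaks, 50.2% for thymocyte-only peaks and 58.2% for the whole genome. The windows 2 kb away had a median of 55.6% around skin-only and 53.5% around shared peaks, so both classes were less AT-rich than their surroundings. AT content above 65% was found at 790 skin-only sites (5.47%) and 2.14% of shared peaks. The observed over expected CpG ratio had a median of 0.204 at skin-only sites and 0.261 at shared peaks.

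The share of sites with the CTCF core motif was lower among skin-only sites than in either other class. It was found at 2869 of them (19.9%, interval 19.2 to 20.5), against 47.4% of shared and 35.3% of thymocyte-only peaks and 34.7% of all skin CTCF peaks. In the windows 2 kb away it was found in 2.25% around skin-only and 4.98% around shared peaks, whose windows were longer. When 1 of the 8 fixed letters could change, 54.1% of skin-only sites matched against 22.6% of their surroundings, and 90.1% of shared peaks matched against 36.0%. Where the exact motif was present it lay within 50 bp of the summit in 74.3% of skin-only sites and 84.9% of shared peaks. Most skin-only sites had a low fold, so the shares were also taken at matched fold. With a fold of 4 to 6 it was found at 19.7% of 7203 skin-only and 48.3% of 4754 shared sites, and with a fold of 6 to 10 at 24.0% of 2662 and 48.9% of 8408.

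The lowest motif share was at the strongest sites. The 839 skin-only sites with a fold of 10 or more had the core motif in 7.51%, against 41.7% of the 2408 shared peaks of that fold, and the plot by fold shows the drop in its left panel. Of these 839 sites, 428 (51.0%) were 400 to 420 bp long, against 2.74% of shared peaks of that fold. They were 58.0% intergenic and their median distance to a gene start was 40.9 kb.

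**Figure D1:**
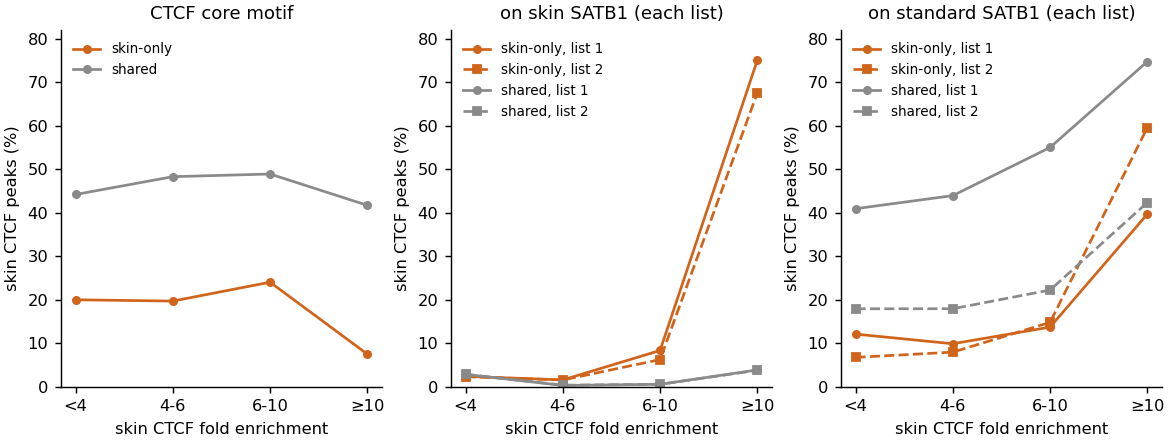
Percent of skin CTCF peaks (vertical axes) with the CTCF core motif, on a skin SATB1 peak and on a standard SATB1 peak, by the fold enrichment of the skin CTCF peak (horizontal axes), for skin-only (orange) and shared (grey) peaks, with solid and dashed lines for SATB1 lists 1 and 2. At a fold of 10 or more, 75.1 and 67.6% of skin-only sites were on skin SATB1 and 7.51% had the motif.

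Overlap with SATB1 in skin itself was higher for skin-only sites than for shared peaks over all folds, but not at the lowest. The first urea SATB1 list of skin had a peak at 1054 skin-only sites (7.30%) and the second at 931 (6.45%), a mean of 6.87% ± 0.60 (SD, n = 2 lists), against 1.12% of shared peaks in each list. Among all skin CTCF peaks the shares were 3.98 and 3.59%. The urea SATB1 lists of thymocytes overlapped 126 (0.873%) and 108 (0.748%) skin-only sites against 1.37 and 1.34% of shared and 1.14 and 1.07% of all skin peaks. Here the skin-only share was the lower. The brain lists overlapped 317 (2.2%) and 272 (1.88%) skin-only sites, close to the 2.15 and 2.00% of shared and the 2.17 and 1.95% of all skin peaks. For the skin lists the values of skin-only and shared peaks did not overlap between lists, while for brain they did. The skin-only and shared values come from the same 2 lists, and no test was run on them. By CTCF fold, the skin lists overlapped 2.38 and 2.3% of skin-only against 2.85 and 2.85% of shared peaks at a fold under 4, where the order was reversed. They overlapped 1.57 and 1.55% against 0.294 and 0.358% at a fold of 4 to 6, 8.34 and 6.24% against 0.559 and 0.547% at 6 to 10, and 75.1 and 67.6% against 3.86 and 3.78% at 10 or more. Without the sites of a fold of 10 or more, the mean of the skin-only sites was 2.90%, and among the strongest skin CTCF peaks, as many as the thymocyte list holds, it was 14.4%.

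Overlap with standard SATB1 ChIP-seq was lower for skin-only sites than for shared peaks over all folds. Both standard lists came from thymocytes, the tissue in which the rule required that a site have no CTCF peak. How much of the lower share follows from the rule was not tested. The 2 standard lists of thymocytes had a peak at 1862 (12.9%) and 1719 (11.9%) skin-only sites, a mean of 12.4% ± 0.70 (SD, n = 2 lists). They had a peak at 53.7 and 23.6% of shared peaks, at 48.3 and 25.3% of thymocyte-only peaks and at 34.8 and 18.2% of all skin CTCF peaks. At a fold of 10 or more the lists differed in direction, with 39.7% of skin-only against 74.8% of shared peaks on list 1 and 59.6 against 42.4% on list 2. The close shares of the 2 lists at skin-only sites hid differences within classes, since lists 1 and 2 had peaks at 36.8 and 22.6% of promoter sites and at 9.20 and 3.76% of sites with the core motif. Of 2661 skin-only sites on either list, 920 were on both. The lists differ in antibody, in sonication (15 s and 150 s in the titles) and in the age in the title, and these cannot be told apart from the replicate. BURs overlapped 678 skin-only sites (4.70%, interval 4.36 to 5.05), 3.19% of shared and 3.88% of all skin peaks. Where the CTCF summit had to lie inside the BUR, 2.65% of skin-only sites did. In all, 10885 skin-only sites (75.4%) had neither a SATB1 peak of any kind nor a BUR, against 43.1% of shared peaks. That contrast includes the thymocyte lists, to which the same limit applies.

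**Figure D2:**
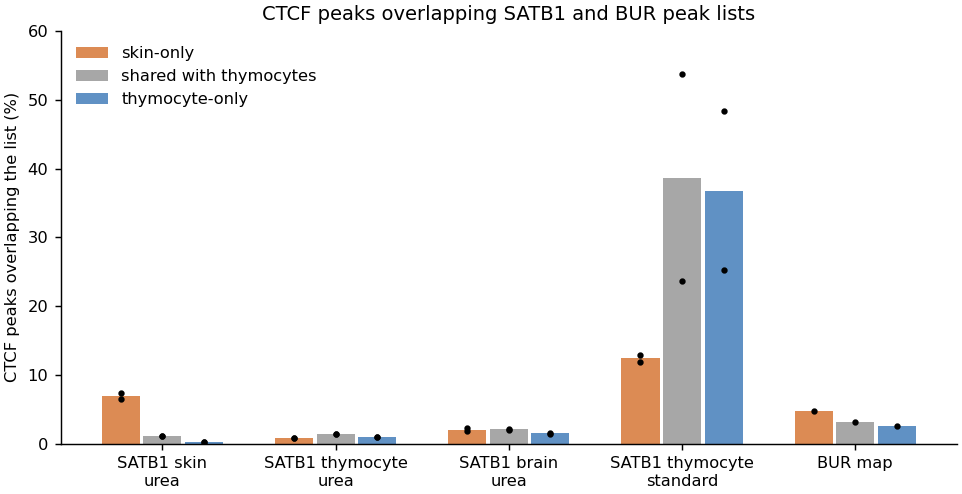
Percent of CTCF peaks (vertical axis) that share at least 1 bp with a peak of each SATB1 or BUR list, for skin-only, shared and thymocyte-only CTCF peaks, with bars at the mean of 2 lists and a point for each list (1 list for BURs). Skin-only sites stand at 7.30 and 6.45% on skin SATB1 and at 12.9 and 11.9% on standard SATB1, where shared peaks reach 53.7 and 23.6%.

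The skin-only sites with skin SATB1 peaks were mostly strong CTCF peaks without the core motif. Both skin SATB1 lists had a peak at 794 sites (5.50%, against 3.1% of all skin CTCF peaks). Their median CTCF fold was 14.1, and 548 of them were among the 839 with a fold of 10 or more. The CTCF core motif was found at 23 (2.90%), near the 2.33% of the windows 2 kb away. They had standard SATB1 peaks in 50.9 and 67.4%, BURs in 17.9%, and thymocyte urea SATB1 in 4.16 and 3.90%. Of all 839 strong sites, 649 had a peak in either skin SATB1 list and 18 of these (2.77%) had the core motif, against 45 of the other 190 (23.7%). The 13248 skin-only sites with no skin SATB1 peak had the motif in 21.4% and standard SATB1 in 10.3 and 7.53%. Both proteins were mapped in skin chromatin, and the part of signal common to all libraries from skin was not tested.

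Sites of this group were named for their high CTCF or SATB1 folds. The site in the Cdrt4 intron (chr11:62768183-62768407) had a fold of 45.0 for CTCF, 41.8 and 41.5 for SATB1 in skin, and 57.9 in both standard SATB1 lists, and the thymocyte CTCF list had its nearest peak 33.3 kb away. A site in an intron of Hhat (chr1:194484181-194484397) had a fold of 40.3 for CTCF, 37.9 and 36.5 for skin SATB1 and 32.5 and 53.3 for standard SATB1. Neither had a urea SATB1 peak in thymocytes or brain. Sites in introns of Atp13a4 (chr16:29504716-29504940, fold 36.8) and Pcdh15 (chr10:72841768-72842154, fold 35.6) also had peaks in both skin and both standard lists and none in thymocyte or brain urea lists, and that of Pcdh15 also lay on a BUR. A site 9.89 kb from the start of Nanog (chr6:122647552-122647766) had a low CTCF fold of 4.15 and SATB1 folds of 35.1 and 35.4 in skin, 35.9 and 35.2 in thymocytes and 28.4 and 29.0 in brain. It also had a fold of 13.3 in the second standard list, with no peak in the first, and of 14.2 in the BUR map. Of the 5 strongest skin-only sites by CTCF fold, those on chromosome 3 (chr3:24962032-24962441 and chr3:114427915-114428323, folds of 40.8 and 40.6) had skin SATB1 but no standard SATB1 peaks, while the fifth (chr4:69640972-69641380, fold 39.4) had folds of 7.10 and 51.4 in the standard lists. The former of the chromosome 3 sites also had a peak in the first brain list (fold 10.6). The latter had peaks in both brain lists (6.67 and 7.07) and lay on a BUR.

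Telomere-like repeats were found mainly at strong sites. At least 2 consecutive telomere units (TTAGGG or its complement) were found at 161 skin-only sites (1.12%) and 5 shared peaks (0.0298%), and in 0.00693% of the windows 2 kb from skin-only sites. Of the 161, 123 were on both skin SATB1 lists, where they made up 15.5%, and 123 had a fold of 10 or more. The standard lists had a peak at 84.5 and 88.2% of the 161, the thymocyte urea SATB1 lists at none. The CTCF core motif was at 4 of the 161 (2.48%), beside 19.9% of all skin-only sites.

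Satb1 itself held 10 skin-only sites within its territory, its body and 10 kb either side, all of them on coding exons. The gene (chr17:51875512-51972615, minus strand) has 11 coding exons once overlapping ones are merged, and 10 of them carried a skin CTCF peak. The folds ranged from 5.47 to 32.3 with a median of 12.9, and the −log10 q from 866 to 5609, against a median of 12.2 for all skin-only sites. All 10 were among the 100 skin-only sites with the highest −log10 q. Each peak reached at least 50 bp past its exon on either side and none held the core motif. Exon and peak are seen in the printed window, whose exon lies in a peak with a fold of 32.3 (chr17:51907041-51907529).

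The same exons had peaks in other lists from this series, but not in all. Both skin SATB1 lists had exactly 10 peaks between the first and the last coding exon, all on coding exons, and the BUR map had 13, of which 10 were on coding exons. The thymocyte CTCF list had 1 peak there and none on a coding exon. The thymocyte urea SATB1 lists had 3 and 5 peaks there, with 1 and 0 on coding exons, the brain lists had 3 and 4 with none, and the standard lists 2 and 1 with 1 each. No other gene had more than 4 skin-only sites on coding exons, which was the count at Ttn. The cause was not tested, and neither was whether these peaks mark CTCF bound at the chromosomal gene. The only shared CTCF peak at Satb1 lay at the 5′ end of the gene.

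**Figure D3:**
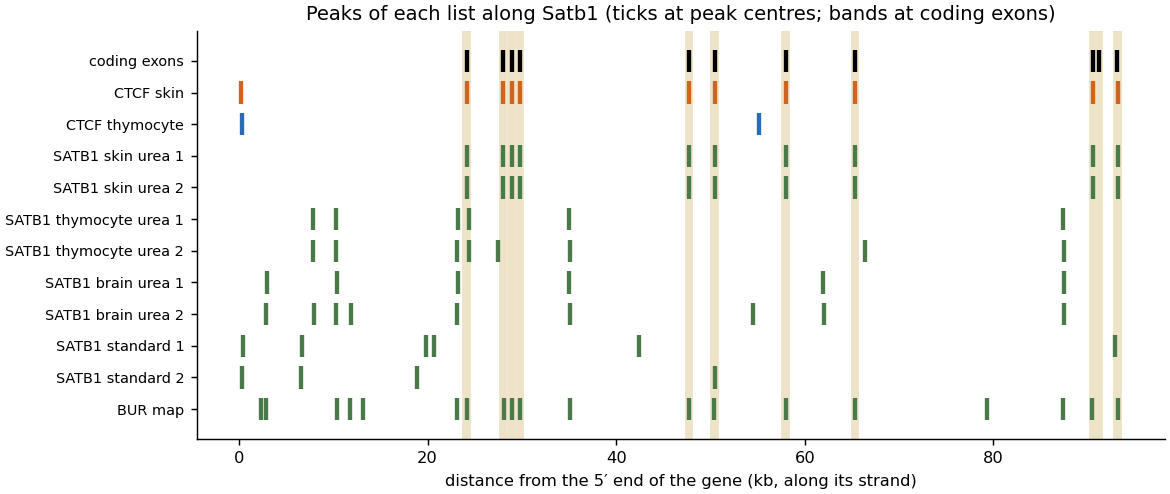
Peaks of each list along Satb1, with distance from the 5′ end of the gene in kb on the horizontal axis, 1 row per list with ticks at peak centres, and bands at the coding exons. The skin CTCF, skin SATB1 and BUR rows have ticks on 10 of the 11 coding exons, and the 2 brain rows on none.

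Sites on both standard SATB1 lists were closer to genes. There were 920 of them among the skin-only sites (6.37%, against 14.8% of all skin CTCF peaks), and 332 were also on both skin SATB1 lists, which is 36.1% of the 920 and 41.8% of the 794. A promoter was found at 33.7%, the median distance to a gene start was 11.1 kb and the median CpG ratio 0.351. Their core motif share was 7.17%, against 39.5% of shared peaks on both standard lists. At promoters, skin-only sites had a median AT content of 42.9% and a CpG ratio of 0.500, and the standard lists had peaks at 36.8 and 22.6% of them, against 78.6 and 54.1% of shared promoter peaks.

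Skin-only sites on BURs had a higher AT content than the set as a whole, but most AT-rich sites were not on BURs. The 678 sites had a median AT content of 61.4% (quartiles 55.8 and 66.5), and they made up 210 of the 790 skin-only sites above 65% AT. Of the 678, 4.28% were at promoters. SATB1 in skin was found at 23.9 and 23.3% of them, in brain at 24.5 and 22.0% and in thymocytes at 10.2 and 9.59%. For shared peaks on BURs the thymocyte lists reached 26.6 and 26.8% and the brain lists 40.4 and 37.6%. The core motif was found at 18.9% of skin-only sites on BURs, similar to the 19.9% of all.

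Genes of the epidermis were next described by how many had a skin-only site in their territory, beside all 22208 protein-coding genes, of which 34.5% had such a site, 46.8% a shared one and 13.6% a thymocyte-only one. Of 85 epidermal genes in 4 lists, 37 had a skin-only site (43.5%, interval 33.5 to 54.1), 47.1% a shared one and 9.41% a thymocyte-only one. Shares ranged from 22.2 to 76.9% over the 4 lists. Longer genes hold more sites, so sites per Mb of territory are given as well, with 7.34 over all genes.

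Genes of basal keratinocytes had the highest share. A skin-only site was found at 10 of 13 (76.9%), with 20.0 sites per Mb, and their median length was 41.9 kb against 15.5 kb for all genes. The other classes were also above all genes, with shared peaks at 61.5 against 46.8% and thymocyte-only peaks at 38.5 against 13.6%. Per Mb there were 13.4 shared and 4.45 thymocyte-only peaks, against 9.99 and 2.04 over all genes. Skin-only sites made up 60.0% of their skin CTCF peaks, beside 42.4% for all genes and 59.4% for neuronal genes. Dst, which encodes a plakin that links keratin filaments to hemidesmosomes, had 10 sites and 4 shared peaks. Its strongest site (chr1:34047665-34048075, in an intron) had a fold of 33.1 and also had peaks in both skin and both standard SATB1 lists. Plec, another plakin of hemidesmosomes, had 4 sites with folds of 3.47 to 4.66, and Itgb4, a hemidesmosome integrin, had 3 with folds of 3.88 to 6.02. Of the 3 at Itgb4, 2 were within 1 kb of the start of an annotated transcript. Krt5 and Krt14, the keratin pair of the basal layer, each had 1 skin-only site and no shared or thymocyte-only peak in the territory. That of Krt5 was at the promoter (chr15:101543966-101544516, fold 4.71) and that of Krt14 lay 5.75 kb from the start (chr11:100061447-100061772, fold 6.96), both without a skin or standard SATB1 peak. Itga6, Itga3, Col17a1, Col7a1 and Lama3, which build the anchoring to the basement membrane, had 1 or 2 each, and Krt15 and Lamb3 were among those with none.

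Transcription factors of the epidermis and hair follicle had a site at 16 of 29 (55.2%), with 14.7 per Mb, and none of the 29 had a thymocyte-only peak, against 13.6% of all genes. Shared peaks were dense there too, with 17.1 per Mb against 9.99 over all genes. Skin-only sites made up 46.3% of the skin CTCF peaks of these genes, beside 42.4% for all genes and 46.3% of all skin CTCF peaks. Klf4, which is required for the skin barrier, had 3 skin-only sites with folds of 3.48, 3.70 and 6.43 and no shared peak. Trp63, the master regulator of stratified epithelium, had 1 site with a fold of 4.28 and no shared peak, its nearest thymocyte CTCF peak lying 230 kb away. Grhl3, a barrier factor, had 2 sites with folds of 4.15 (at the promoter) and 4.82, and Grhl2, its relative, had 3 beside 4 shared peaks. The strongest of Grhl2 (chr15:37188606-37188826, an intron) had a fold of 23.4, and both skin SATB1 lists and the second standard list had a peak there. Tfap2a and Pitx1 had 2 each and no shared peak, and Tcf7l1, a Wnt pathway factor of follicle stem cells, had 3 beside 5 shared.

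Genes of the suprabasal and cornified layers and of cell junctions had lower shares than the basal keratinocyte and transcription factor lists. A skin-only site was found at 7 of 25 suprabasal genes (28.0%, 8.33 per Mb), beside 34.5% and 7.34 per Mb over all genes. The suprabasal genes were shorter, with a median length of 11.0 kb against 15.5 kb for all genes. Lor, which encodes the main protein of the cornified envelope, had 2 sites on its exons with low folds of 3.61 and 3.35 (chr3:91884693-91885026 and chr3:91885357-91885573), low AT content of 26.9 and 23.0% and no core motif. Krt10, a suprabasal keratin, had 1 site with its summit 1.74 kb from the start of the gene (chr11:99252114-99252612, fold 8.91). Hrnr, Tgm3, Tgm5, Aloxe3 and Abca12 had 1 each. Of 18 junction genes, 4 had a site (22.2%, 5.84 per Mb), which were Cdh1 with 2 and Jup, Perp and Cdh3 with 1 each, while 50.0% had a shared peak.

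The 65 skin-only sites in epidermal territories had folds and SATB1 shares near those of all skin-only sites. Their folds ranged from 3.20 to 33.1 with a median of 4.55 against 4.69 for all skin-only sites. The core motif was at 8 of them (12.3%), beside 19.9% of all skin-only sites and 41 of 75 shared peaks there (54.7%). The skin SATB1 lists had peaks at 5 and 3 of the 65, beside 7.30 and 6.45% of all skin-only sites, and the standard lists at 8 and 7 (12.3 and 10.8%), beside 12.9 and 11.9%, with none on the urea lists of thymocytes and brain or the BUR map. The standard lists had peaks at 53.3 and 21.3% of the 75 shared peaks.

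**Figure D4:**
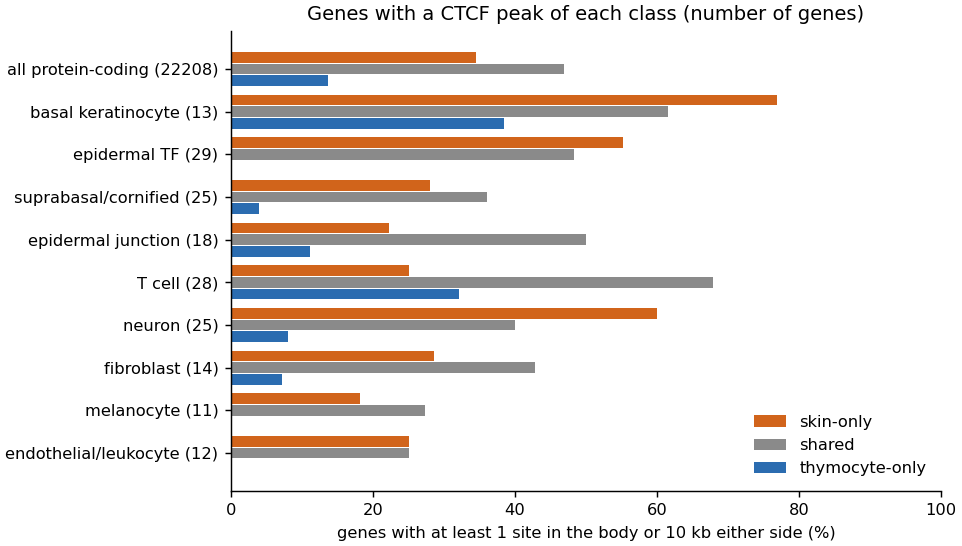
Percent of genes (horizontal axis) with at least 1 skin-only, shared or thymocyte-only CTCF peak in the gene body or 10 kb either side, for all protein-coding genes and each gene list, with the number of genes in brackets. Basal keratinocyte genes stand at 76.9% for skin-only sites, all genes at 34.5% and T-cell genes at 25.0%.

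The epidermal differentiation complex held more skin-only than shared CTCF peaks. In the window from S100a1 to S100a10 (chr3:90314956-93368565, 3.05 Mb) there were 36 skin-only sites, 14 shared peaks and 3 thymocyte-only peaks, so 72.0% of its skin CTCF peaks were skin-only, against 46.3% in all. The density was 11.8 skin-only sites per Mb, against 5.48 over the chromosomes. The longest stretches of the window without a thymocyte CTCF peak were picked, so every skin peak inside them is skin-only by the rule. The first, of 2197 kb (chr3:90514367-92711675), in which 40 genes lie, held 21 skin-only sites. A second of 361 kb, from Crct1 to Hrnr, held 10. The folds of the 36 sites ranged from 3.35 to 11.1 with a median of 5.56, against 8.16 for the shared peaks of the window. The core motif was at 11 of 36 skin-only and 10 of 14 shared sites, beside 19.9% of all skin-only and 47.4% of all shared peaks. Of the 36, 31 were intergenic, beside 48.9% of all skin-only sites.

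SATB1 peaks at these sites are given beside their shares over all skin-only sites. Neither skin SATB1 list overlapped any of the 36 (7.30 and 6.45% over all), and the standard lists overlapped 4 and 0 (12.9 and 11.9%). The thymocyte urea lists overlapped 1 each (0.873 and 0.748%), the brain lists none (2.2 and 1.88%), and 1 site lay on a BUR (4.70%). No count was tested. The strongest were site 1 of the sequences above (chr3:93210885-93211329, fold 11.1), site 2 (chr3:91957178-91957695, fold 11.0, 10.8 kb from the start of Lelp1) and site 3 (chr3:92835333-92835761, fold 10.6, 12.6 kb from Lce1m, a late cornified envelope gene). All were intergenic and had no SATB1 or BUR peak.

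**Figure D5:**
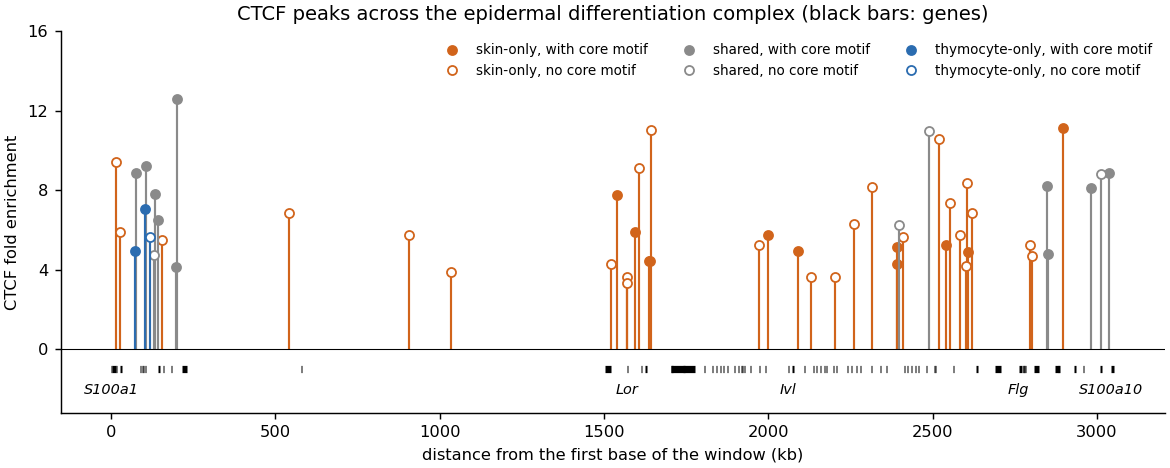
CTCF peaks across the epidermal differentiation complex, with distance from the first base of the window in kb on the horizontal axis and the fold enrichment on the vertical axis (skin values for skin-only and shared peaks, thymocyte values for thymocyte-only peaks), filled circles for peaks with the core motif and black bars for genes. Between 199 and 2397 kb from the first base, a stretch picked for having no thymocyte CTCF peak, only skin-only sites are seen.

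The keratin clusters had smaller numbers. The type I cluster (chr11:99094075-100131185) held 13 skin-only sites, 11 shared and no thymocyte-only peaks, and the type II cluster (chr15:101177875-101862457) held 10, 9 and none. Skin-only sites thus made up 54.2 and 52.6% of skin CTCF peaks there, near the 46.3% of all. Their densities were 12.5 and 14.6 per Mb. The core motif was at 1 site in each cluster, against 7 and 4 shared peaks, and at 19.9% of all skin-only sites. No site in either cluster had a skin or standard SATB1 peak, beside 7.30 and 6.45% and 12.9 and 11.9% of all skin-only sites. In the type II cluster the thymocyte urea lists overlapped 0 and 1 and the brain lists 1 and 2 of the 10 sites. Besides the sites of Krt10 and Krt14, the strongest in the type I cluster lay in an intron of Krt28 (chr11:99230546-99230919, fold 6.37). Those of the type II cluster were on an exon of Krt75 (chr15:101398236-101398753, fold 6.02), 15.8 kb from the start of Krt1 (chr15:101665249-101665655, fold 5.89) and at the Krt5 promoter.

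Genes of other cell types were counted in the same way. Of 28 T-cell genes, 7 had a skin-only site (25.0%, interval 12.7 to 43.4), 67.9% a shared and 32.1% a thymocyte-only one. Their 19 skin-only sites included the 10 of Satb1, and without that gene there were 9 sites, or 4.44 per Mb, with 14.8 shared and 4.44 thymocyte-only sites per Mb. Lck, the kinase of T-cell receptor signalling, had 2, each within 1 kb of an annotated gene start, Tox, a factor of T-cell development, had 3, and Themis, Bcl11b, Lef1 and Runx3 had 1 each. Neuronal genes, which are long (median 71.7 kb), had a skin-only site at 15 of 25 (60.0%), with 6.42 per Mb, led by Rbfox3 with 9 and Nrxn3 with 8. The shares were 28.6% for 14 fibroblast, 18.2% for 11 melanocyte and 25.0% for 12 endothelial and leukocyte genes. Their strongest sites lay in introns of Grin2a (fold 24.1), Fbln1 (11.6), Oca2 (7.85) and Pecam1 (11.7). Peak lists hold no measure of the cell types in the skin sample.

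The genes with the most skin-only sites were mostly long. Gm20388 (4435 kb) had 54 and Fgfr2, which spans 3009 kb in this annotation, had 41. Sfi1 (15 sites) and the predicted genes Gm10721 (13) and Gm10720 (11), which span 61.6, 1.18 and 1.56 kb, lie near the starts of chromosomes 11 and 9. The territories of Gm10721 and Gm10720 overlap, so a site can count for both. The 15 sites of Sfi1 had folds of only 1.44 to 3.42, those of Gm10721 1.43 to 3.81 and those of Gm10720 1.55 to 3.81. All sites of Gm10721 and Gm10720 were on both standard SATB1 lists, 11 and 10 on both skin SATB1 lists and 12 and 11 on BURs. At 3 Mb of chromosome 9 lay 15 of the 100 skin-only sites with the highest −log10 q. Fry had 13 sites, of which 9 held the core motif (19.9% of all skin-only sites) and none had a skin or standard SATB1 peak. Auts2 and Magi1 had 12 each, with no shared or thymocyte-only peak in either territory, at least 574 and 299.6 kb from any thymocyte CTCF peak. Those of Magi1 had folds of 3.21 to 8.49 and the core motif at 5, and those of Auts2 had folds of 3.48 to 24.6 and the motif at 1. Camta1 had 11, and Dst completed the list with 10, as many as Satb1.

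Skin-only sites were spread over 2446 bins of 1 Mb, with a median of 5 per bin. The highest counts were 26 at 3 to 4 Mb of chromosome 11, which holds Sfi1, 22 each at 138 to 139 Mb and 140 to 141 Mb of chromosome 4 and at 19 to 20 Mb of chromosome 7, and 21 at 41 to 42 Mb of chromosome 4. The bin at 140 Mb of chromosome 4 held Padi1, Padi2, Padi3, Padi4 and Padi6, which encode peptidylarginine deiminases, and that at 138 Mb had 22 skin-only, 19 shared and no thymocyte-only peaks.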

How the data were processed

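Peak lists of CTCF and SATB1 chromatin immunoprecipitation and of base unpairing regions were analysed. Bowtie2 2.3.1 (alignment to mm9) and MACS2 2.2.7 (a separate peak list for every sample) were used by the authors, per the submitters' processing notes and the study's methods. The deposited fold enrichment is a ratio of summit signal over local background, and the deposited −log10 q-value was computed within each list. The lists hold no read counts, so the depth is unknown and was not scaled between lists. Whether depth sets the length of a list was not tested.

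Overlap meant at least 1 shared bp. Genes were the 22208 protein-coding symbols of GENCODE vM1, and sequence came from NCBIM37, the Ensembl name of mm9. Gene starts were the starts of all annotated transcripts of these genes, including those inside a gene. A promoter was a peak within 1 kb of a gene start, and a gene's territory was its body and 10 kb either side. Distances to gene starts were taken from the peak edge for classes of sites and from the summit for named sites. Flanks were the 2 windows of the same length centred 2 kb away. The CTCF core motif was CCA, any 2 bases, AG, any 2 bases and GGC, on either strand. Repeat share was not computed here. Regions of a single list are not replicates, so no test was run, and 2 lists against 2 cannot go below p = 0.333 in an exact two-sided permutation test. Wilson intervals of 95% treat sites as independent and cover counting error only. Overlap and motif functions were tested on simulated data.

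Members and gene lists were chosen with earlier results of these data known. Sites named here were the strongest by fold in each list, window or overlap class and those nearest the limit of the rule, and genes named were listed genes with a site and the 10 genes with most sites. 1 listed gene and 1 sequence are not reported here. 3 older symbols (*Tcfap2a*, *Tcfap2b*, *Tcfap2c*) were matched through RefSeq synonyms, and *Ptcra* is not annotated as protein-coding. The second thymocyte CTCF sample, Satb1-/- samples, inputs, Hi-C and 4C were not analysed here. Python 3.11.15, numpy, pandas and scipy were used.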

Additional observations from a re-analysis of the deposited data

How the results depend on the processing

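Of 94 alternatives over 11 results, 68 left the value within the SD of its paired lists, its 95% interval or 1.5 times its count, and none has a test. Taking only the strongest skin CTCF peaks, as many as the 20219 of the thymocyte list, left 6336 skin-only sites (31.3% of those peaks). It gave 9.61% at promoters, a median AT content of 53.5%, standard SATB1 at 17.9%, skin SATB1 at 14.4%, brain SATB1 at 2.33%, BURs at 5.92%, and epidermal genes at 22.4% beside 17% of all genes. The share of T-cell genes was then 21.4%, near that of the epidermal genes. The junction genes then had no site.

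Requiring 1 kb to a thymocyte peak gave 10.5% at promoters. Promoters within 2.5 kb gave 17.1% and peaks over a gene start 3.20%. Within 100 bp of the summit, median AT content was 52.2% and the motif was at 18.3%. A core without its first CCA was at 63.0%, beside 43.5% of the windows 2 kb away and 88.9% of shared peaks. With the CTCF summit inside the other peak, overlap was 11.0% for standard SATB1, 0.409% for thymocyte SATB1, 1.07% for brain SATB1 and 2.65% for BURs. Gene bodies alone gave 27.1% of epidermal and 21.4% of T-cell genes, beside 21.6% of all genes. With 50 kb either side it was 82.4% of epidermal and 53.6% of T-cell genes, beside 63.0% of all genes. By list, that setting gave 100% of basal keratinocyte, 88.0% of suprabasal, 86.2% of transcription factor and 55.6% of junction genes.

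Alternatives chosen after seeing the data were 1 changed motif letter (54.1%) and leaving out sites with a fold of 10 or more, which gave the motif at 20.6%, standard SATB1 at 10.1%, skin SATB1 at 2.90% and BURs at 4.27%. With 1 SATB1 list at a time, overlap ranged from 6.45 to 7.30% in skin, 0.748 to 0.873% in thymocytes, 1.88 to 2.2% in brain and 11.9 to 12.9% for standard SATB1. No paired analysis was possible because no result comes from a test. Depth is unknown, and with 1 CTCF list analysed per tissue a site missing from the thymocyte list cannot be told from a site below its threshold.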

Other observations

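Letters of motifs known for epidermal factors were counted at the skin-only sites and around them. The AP-1 letters TGANTCA, on either strand, were found at 1245 sites (8.62%) and in 9.04% of the windows 2 kb away, and at 11.5% of the longer shared peaks with 12.4% of theirs. The grainyhead letters AACCNGGTT were found at 46 skin-only sites (0.319%) and in 0.246% of their surroundings. Runs of 10 or more CA units were found at 2.58% of skin-only sites and in 3.58% of their surroundings.

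Seen from the SATB1 lists, skin-only CTCF sites took up 9.60 and 8.74% of the 10982 and 10611 skin SATB1 peaks, while shared CTCF peaks took up 1.78 and 1.80%. For the 2 standard lists the values were 3.92 and 6.43% on skin-only sites and 19 and 15.1% on shared peaks. Of the 232068 BURs, 0.292% lay on a skin-only site and 0.233% on a shared peak.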
